A study of Rattus norvegicus with 20 samples.

Results

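The Z-disc is the border of the sarcomere, where thin filaments of neighbouring sarcomeres are cross-linked and titin is anchored, and it is a place where muscle cells sense stretch. Z-disc proteins fall into structural cross-linkers, caps and linkers of titin, and signalling proteins that also move to the nucleus, and several of their genes are known for higher expression in overloaded heart. The genes described here are Ankrd1 and Ankrd23, Csrp3, Tcap, Myoz2, Actn2, Fhl1 and Xirp1. They were taken as all probe sets annotated with exactly 1 gene symbol that is one of these 8, which gave 11 of 20826 probe sets with a gene of their own, or 8 of 14217 genes. The genes were proposed with the mRNA difference between the hearts in view, so their mRNA values are given as a description, with no test.

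Left ventricle of a failed heart was set against that of a normal heart in Dahl rats, strains in which salt in the diet can raise blood pressure, on Affymetrix Rat Genome 230 2.0 expression arrays. The failed heart is labelled as congestive heart failure, with a high-sodium diet given for its mRNA sample only, and the age is 19 weeks for every sample except H4ac of the normal heart, for which no age is labelled and which names pre-IP DNA as its source although its title, description and protocol say H4ac. Each heart had 10 arrays, made of mRNA, genomic DNA before immunoprecipitation (pre-IP), and chromatin immunoprecipitates (ChIP) for acetylated H3 (H3ac) and H4 (H4ac) and for methylated lysines, which were K27me2, K20me3, K9me3, K9me2, K4me3 and K4me2, their histone not named by the labels. There was 1 array per assay and heart, from 1 left ventricle specimen per experiment, so no value below has an error, a p-value or a replicate check, and heart, diet, animal and array cannot be told apart. Whether the 10 assays of a heart used the same specimen is not stated, and the H3ac array of the normal heart is placed by its description, since its title names no heart. The labels do not say which line of Dahl rat either heart came from, nor what the normal heart's animal was fed.

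Levels are array intensities scaled so that the median of each array is 100, with a floor of 10. They are relative to other probe sets of the same array, and levels of different probe sets are not compared. Enrichment is the log2 ratio of a ChIP level to the pre-IP level in that heart, and a difference is failed minus normal on the log2 scale. A difference was called when it reached 2-fold, which is 1 on the log2 scale, and the log2 level, averaged over the arrays that enter it, was no lower than the median such average of the whole array (the level filter). The probes were designed for transcripts, so a ChIP value describes DNA under the transcribed part of a gene and not its promoter.

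The 8 genes lie on different rat chromosomes except for Ankrd1 and Csrp3. In the RefSeq annotation of GRCr8, Ankrd1 (gene 27064) spans chr1:243228460-243237014, Csrp3 (gene 117505) chr1:107664338-107682916, Myoz2 (gene 295426) chr2:213826052-213852778, Xirp1 (gene 100910104) chr8:128625111-128635011, Ankrd23 (gene 316330) chr9:46269107-46274578, Tcap (gene 688173) chr10:83878006-83879174, Actn2 (gene 291245) chr17:62835055-62902331 and Fhl1 (gene 25177) chrX:139592794-139652290. Ankrd1 had 2 probe sets and Fhl1 had 3, numbered here in the order of their identifiers, and each of the others had 1. Where in the gene the probes lie was not used.

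Promoter windows from the RefSeq table ran from 250 bases before to 50 bases after an annotated start of a gene on GRCr8. Windows matched 5 of the 8 genes by symbol: Ankrd23, Myoz2, Actn2, Fhl1 and Xirp1. They are shown for the 3 genes with a single window and an mRNA difference past 2-fold, since their mRNA was higher in the failed heart, and capitals mark motif matches on either strand. The windows lie at chr9:46274461-46274760 on the minus strand for Ankrd23, at chr2:213852729-213853028 on the minus strand for Myoz2 and at chr17:62834805-62835104 on the plus strand for Actn2.
Ankrd23: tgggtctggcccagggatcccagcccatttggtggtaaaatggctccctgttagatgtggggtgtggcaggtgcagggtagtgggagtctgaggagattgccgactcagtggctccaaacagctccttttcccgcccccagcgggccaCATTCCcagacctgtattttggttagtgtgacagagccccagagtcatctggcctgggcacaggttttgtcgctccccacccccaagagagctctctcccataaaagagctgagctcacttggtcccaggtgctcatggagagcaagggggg
Myoz2: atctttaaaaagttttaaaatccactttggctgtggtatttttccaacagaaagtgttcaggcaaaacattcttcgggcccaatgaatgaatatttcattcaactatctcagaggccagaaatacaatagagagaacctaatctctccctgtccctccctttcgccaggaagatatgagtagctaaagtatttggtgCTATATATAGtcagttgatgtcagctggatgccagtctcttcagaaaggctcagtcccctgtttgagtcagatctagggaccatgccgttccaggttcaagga
Actn2: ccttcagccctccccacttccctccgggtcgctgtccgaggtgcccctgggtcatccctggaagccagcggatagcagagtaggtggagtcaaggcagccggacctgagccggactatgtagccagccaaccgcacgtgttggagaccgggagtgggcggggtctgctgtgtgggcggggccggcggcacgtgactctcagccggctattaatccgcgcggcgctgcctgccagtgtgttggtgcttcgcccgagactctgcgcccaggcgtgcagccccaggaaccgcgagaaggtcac

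The motifs searched were the M-CAT core CATTCC, bound by TEAD factors, the GATA core AGATAA, the CArG box of serum response factor and the MEF2 site, each known from muscle promoters. The Ankrd23 window held an M-CAT core 102 bases before the start, a motif present in 14.2% of all 33469 windows. The Myoz2 window held a MEF2 site 53 bases before the start, where 3.29% of windows have this site. These 4 motifs had no match in the Actn2 window. Of the windows not shown, the upstream one of Fhl1 held a CArG box, found in 1.64% of windows, and 2 of the 3 windows of Xirp1, which overlap, held the same MEF2 site and the same GATA core, the GATA core being found in 11.6% of windows. No match overlapped one of another motif. The windows of Fhl1 lie wholly inside the span given above for that gene, as does the Xirp1 window without a match. A match describes the letters of the window, and whether any probe lies in a window was not checked.

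The first comparison was of the mRNA of these genes in failed and normal left ventricle. All 11 probe sets had higher values in the failed heart, and 8 of the 10 above the level filter reached 2-fold, from 7 of the 8 genes. Over all probe sets above the filter, 11.7% were higher by 2-fold or more and 3.39% lower. The median difference over the 11 probe sets was 1.78, against 0.11 over all probe sets with a gene of their own. Since the genes were chosen with this contrast in view, nothing is read from that count. The value nearest to the 2-fold threshold inside it was that of Tcap at 1.35 and outside it that of Fhl1 probe set 2 at 0.89.

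Ankrd23 and Ankrd1 are muscle ankyrin repeat proteins that bind titin's N2A region in the I-band and can also be found in the nucleus. Ankrd23 had a level of 4142 in the failed and 166 in the normal heart, a difference of 4.64 or 24.9-fold, the rank 4 from the top among the 11652 probe sets that passed. It was the largest difference in the group. Ankrd1 probe set 1 had 26121 in the failed and 5906 in the normal heart, a difference of 2.14 or 4.42-fold. Ankrd1 probe set 2 had 7360 in the failed and 944 in the normal heart, a difference of 2.96 or 7.79-fold. Both probe sets of Ankrd1 thus differed in the same direction, at ranks 93 and 22.

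Csrp3, the muscle LIM protein, links the Z-disc to other cytoskeletal proteins and acts as a cofactor in the nucleus during muscle differentiation. It had 10739 in the failed and 1849 in the normal heart, a difference of 2.54 or 5.81-fold, at rank 42. Fhl1, a protein made of LIM domains that binds titin's N2B region, had 4011 in the failed and 1328 in the normal heart at probe set 1, a difference of 1.59 or 3.02-fold. Its probe set 2 had 183 in the failed and 98.3 in the normal heart, a difference of 0.89. Its probe set 3 had 44.5 in the failed heart and was at the floor in the normal heart, so that its 4.45-fold is a lower bound, and it lay below the level filter. The 3 probe sets of Fhl1 differed in the same direction, and only probe set 1 stood far above the array median.

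The remaining members are parts of the Z-disc or of the intercalated disc and their binding partners. Tcap, or telethonin, which caps titin at the Z-disc, had 22680 in the failed and 8923 in the normal heart, a difference of 1.35 or 2.54-fold. Myoz2, or calsarcin-1, which ties the phosphatase calcineurin to alpha-actinin, had 14823 in the failed and 5218 in the normal heart, a difference of 1.51 or 2.84-fold. Actn2, the alpha-actinin that cross-links thin filaments, had 3005 in the failed and 874 in the normal heart, a difference of 1.78 or 3.44-fold. Xirp1, a Xin repeat protein that binds actin at the intercalated disc, had 777 in the failed and 576 in the normal heart, a difference of 0.43. It was the smallest difference in the group and did not reach 2-fold.

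**Figure D1:**
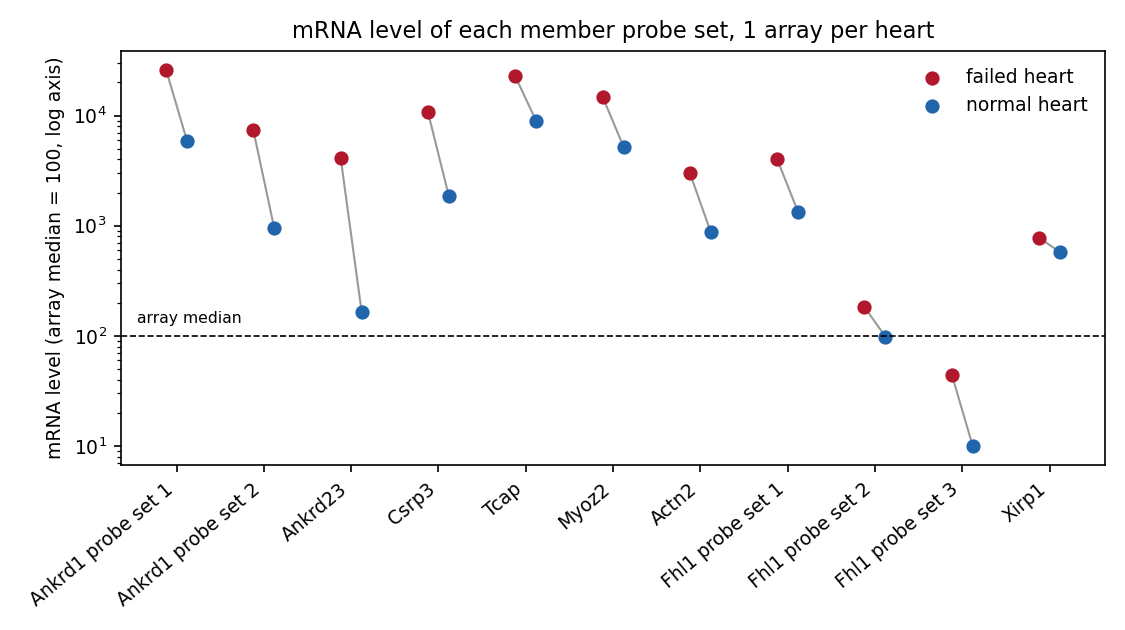
mRNA level of each of the 11 probe sets (y axis, array median of 100, log scale) in the failed heart (red, left) and the normal heart (blue, right), 1 array each. Every pair falls to the right, most steeply for Ankrd23 at 4142 in the failed and 166 in the normal heart, and least for Xirp1 at 777 in the failed and 576 in the normal heart.

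Other scalings gave smaller differences. As deposited, the median of the failed mRNA array over that of the normal one was -0.27 on the log2 scale, and the scaling used here sets both to 100. With values as deposited 8 probe sets were still at least 2-fold higher, where 6.02% of all probe sets were higher and 7.24% lower. With quantile normalization the count was 6, where 6.73% of all were higher and 5.95% lower, and Tcap at 0.81 and Myoz2 at 0.85 no longer reached 2-fold. Ankrd23 lay between 4.33 and 4.64 and Csrp3 between 1.91 and 2.54 under all settings tried.

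**Figure D2:**
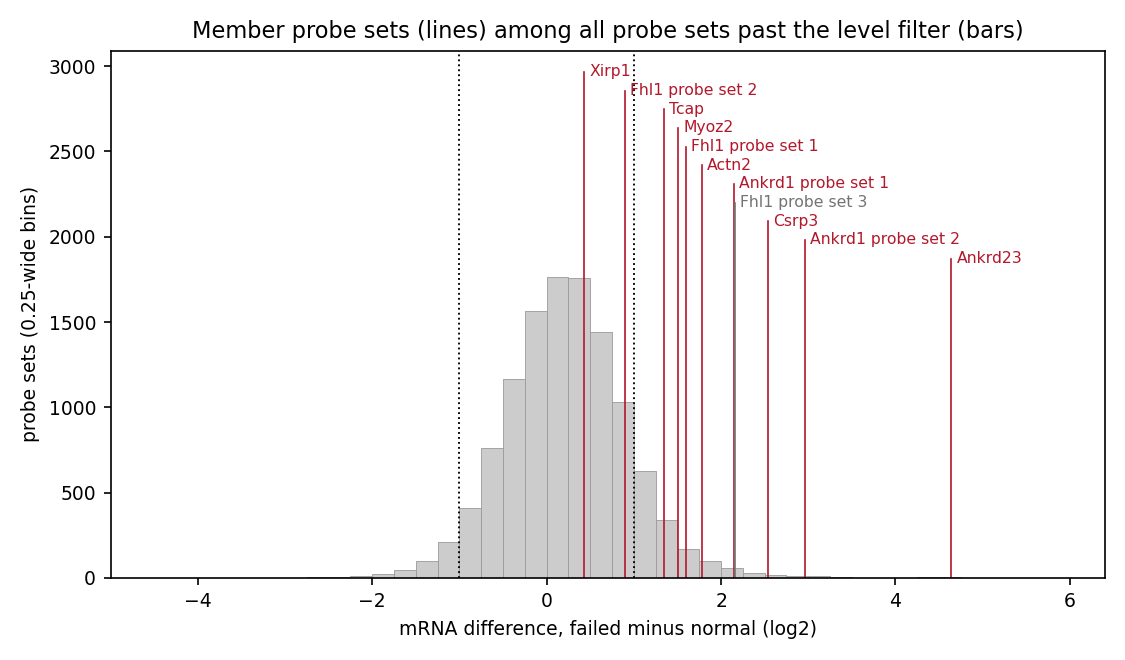
Number of probe sets past the level filter (y axis, grey bars) by their mRNA difference, failed minus normal (x axis, log2), with the 11 probe sets of the group as lines (red where they passed the filter, grey where not) and the 2-fold threshold dotted. Xirp1 at 0.43 lies inside the bulk of the bars and Ankrd23 at 4.64 at their far right end.

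RNA of other cells and the 3′ to 5′ ratios of RNA controls also differed between the mRNA arrays. Their part in the differences above was not tested. Although the mRNA is labelled as that of myocytes, transcripts known from other cells were detected with it. In such a bulk sample, fewer or more cells of a type and less or more RNA per cell cannot be told apart. Of 11 cardiomyocyte markers measured, all above the filter, 4 were called higher and 1 lower. Their summed level was 180332 in the failed and 130981 in the normal heart, or 160042 and 89640 without Myh6. Of 9 fibroblast markers 5 were higher and 0 lower. Their sums were 52382 in the failed and 21017 in the normal heart, or 40412 and 14016 without Dcn. Of 7 smooth muscle markers 1, Des, was higher and 6 were lower. Their sums were 3981 in the failed and 6109 in the normal heart, or 2643 and 2979 without Myh11. Fibroblast markers were thus mostly higher and smooth muscle markers mostly lower, where 11.8% of all genes were called higher and 3.14% lower. The marker lists were also chosen with earlier results of these data known, and they were not recounted under other scalings. Of 8 macrophage and leukocyte markers 7 passed, 2 were higher and 0 lower, with sums of 10527 in the failed and 2797 in the normal heart, or 2869 in the failed and 1472 in the normal heart without Lyz2. Of 7 endothelial markers 1 was higher and 0 lower. Their sums were 12725 in the failed and 12598 in the normal heart, or 8622 and 8881 without Tek. Of 9 skeletal muscle markers 2 passed and 0 were called, with sums of 23393 in the failed and 31484 in the normal heart, or 935 in the failed and 750 in the normal heart without Myh1, and the defining genes Myh4 and Atp2a1 were at the floor in the failed heart. For the GAPDH control probe sets the 3′ signal was 22.6 times the 5′ signal in the failed and 11.3 times in the normal heart. For beta-actin it was 12.4 times in the failed and 18.2 times in the normal heart, so these controls went in opposite directions.

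Other Z-disc, titin and costamere genes, with their signalling partners, were taken from a list of 58, of which 53 were measured, and of these 48 passed the filter. In the failed heart 18 of these reached 2-fold above the normal heart and 1 reached 2-fold below it. Of all genes 11.8% were higher and 3.14% lower, and the median difference was 0.72 for the list against 0.15 over all genes. This list too was chosen with earlier results of these data known, so nothing is read from its counts or its median. Synpo2l, an actin-associated Z-disc protein, had 9179 in the failed and 1198 in the normal heart, the largest difference of the list at 2.94. Cmya5, or myospryn, had 3331 in the failed and 488 in the normal heart (2.77), and Synpo2, or myopodin, 5051 in the failed and 828 in the normal heart (2.61). That was the highest of the 4 probe sets of Synpo2, of which the lowest had -0.56. Des, the gene of desmin, the intermediate filament around the Z-disc, had 1489 in the failed and 276 in the normal heart (2.43). The differences of these 4 genes, each by its brightest probe set, lay within those of the 2 Ankrd1 probe sets. At the other end Trim63, a muscle ubiquitin ligase, had 377 in the failed and 811 in the normal heart (-1.10), and the LIM protein gene Csrp1 had 728 in the failed and 1198 in the normal heart (-0.72). Fhl2 had 8942 in the failed and 13196 in the normal heart (-0.56), and Myoz1 221 in the failed and 314 in the normal heart (-0.51). Csrp1 is a relative of Csrp3, Fhl2 of Fhl1 and Myoz1 of Myoz2, and none of them reached 2-fold. Of the other relatives above the filter Csrp2 had a difference of 2.28 and Fhl3 of 0.07, and a second Fhl2 probe set had -0.02. Among relatives of Actn2, Actn1 had 0.64, with -0.44 at its other probe set, and Actn4 had 0.10. Actn3 had 1.81 and lay below the filter. Titin itself, Ttn, had 6692 in the failed and 4227 in the normal heart (0.66). Ankrd2, the third muscle ankyrin repeat gene, had 98.6 in the failed and 61.4 in the normal heart (0.68) and lay below the filter. As deposited 11 genes of the list were higher and 1 lower, against 6.1% and 6.86% of all genes. Under quantile normalization 11 of them were higher and 3 lower, against 6.39% and 5.77% of all genes.

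**Figure D3:**
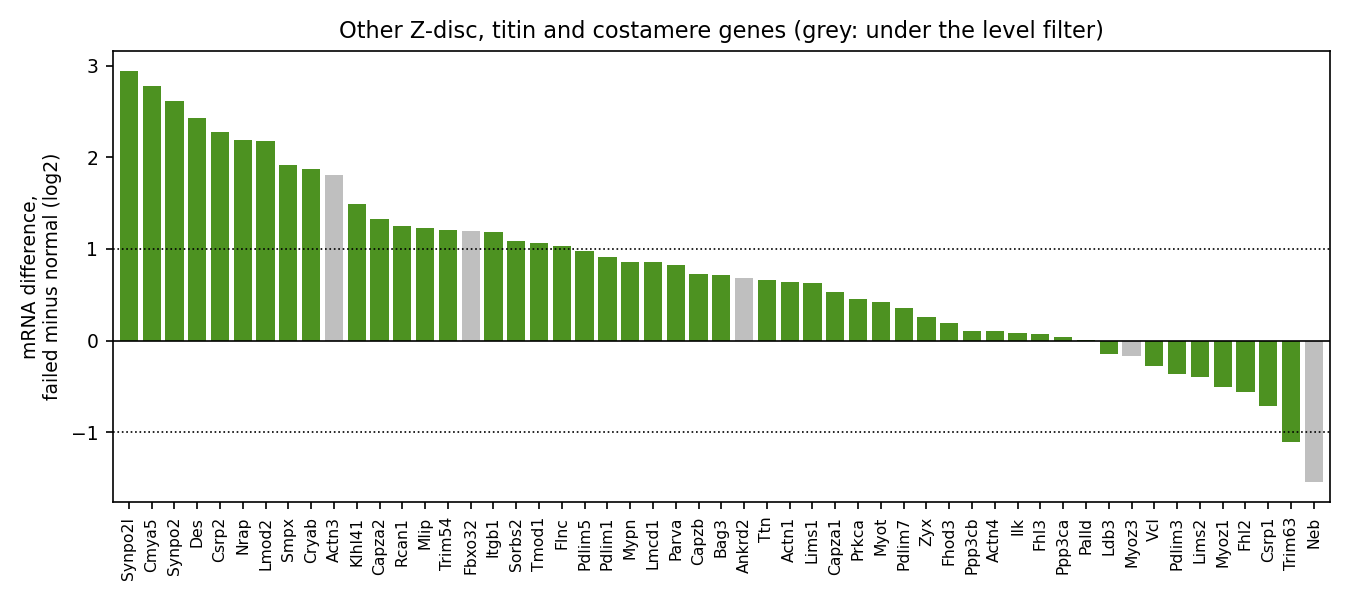
mRNA difference, failed minus normal (y axis, log2), of 53 other Z-disc, titin and costamere genes (x axis, ordered by difference), each by its brightest probe set. Bars run from 2.94 for Synpo2l to -1.54 for Neb, which like the other grey bars lay below the level filter, and the dotted lines mark 2-fold.

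The pre-IP arrays gave the background of the DNA measurements. Of the 11 probe sets 8 passed the level filter and 0 of them differed by 2-fold, where 7.68% of all probe sets did. The differences of those 8 lay between -0.30, for Csrp3 and Xirp1, and 0.67, for Ankrd1 probe set 2. Fhl1 stood apart among the rest: probe set 1 had pre-IP levels of 31.4 in the failed and 60.3 in the normal heart (-0.94) and probe set 3 had 91.1 in the failed and 30.6 in the normal heart (1.57). The pre-IP value of a heart enters the enrichment of all its 8 marks, so a high or low pre-IP value shifts all 8 together, and the 8 differences of a probe set are not independent.

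The acetylation of H3 and H4 and the methylation of K4 are known as marks of active genes, and methylation of K9, K27 and K20 is known mostly from repressed chromatin. Within each heart the median enrichment of the 11 probe sets was highest for the acetylations at a median scaling, and it was lowest for K27me2 in the failed and for K20me3 in the normal heart. This order depended on the scaling, on the pre-IP subtraction and on counting probe sets. In the normal heart K9me3 had 0.32 as deposited, against 0.20 for H3ac and 0.35 for H4ac. Under quantile normalization K9me3 had 0.29 there, against 0.25 for H3ac and 0.16 for H4ac. Without pre-IP the normal heart had 1.15 for K4me2 and 1.005 for K4me3, against 0.68 for H3ac and 0.91 for H4ac. With each gene by its brightest probe set, the failed heart had 0.62 for H3ac, 0.30 for K9me2 and 0.05 for H4ac. Its lowest was then K4me3 at -0.40, against -0.36 for K27me2. In the normal heart H4ac at 0.49 and H3ac at 0.25 were still the highest. For H3ac the median over the 11 probe sets was 0.35 in the failed heart, where it was -0.04 as deposited, and 0.55 in the normal heart. All probe sets had 0.07 in the failed and 0.06 in the normal heart. For H4ac it was 0.25 in the failed heart, where it was -0.15 under quantile normalization, and 0.62 in the normal heart. All probe sets had 0.04 in the failed and 0.07 in the normal heart. An H3ac enrichment of at least 2-fold was found at 1 of 9 probe sets above the filter in the failed heart, where 21.1% of all had one, and at 3 of 9 in the normal heart, where 22.1% did. For H4ac it was 2 of 10 in the failed heart, against 9.79%, and 2 of 9 in the normal heart, against 15%. These counts are near the shares over the whole array.

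For K27me2 the median was -0.79 in the failed and -0.69 in the normal heart, with 9 of 11 probe sets below 0 in the failed and 10 of 11 in the normal heart. For K20me3 it was -0.58 in the failed and -0.96 in the normal heart, again with 9 of 11 below 0 in the failed and 10 of 11 in the normal heart. Over all probe sets the medians of both marks lay between -0.05 and -0.02. Probe sets above the filter and depleted at least 2-fold numbered 3 of 6 for K27me2 in the failed heart, against 13.3% of all, and 1 of 5 in the normal heart, against 12.9%. For K20me3 they numbered 2 of 7 in the failed heart, against 11.7%, and 2 of 6 in the normal heart, against 10.6%. The group was thus mostly below 0 for both marks in both hearts, although few of its probe sets passed the filter there. This was not particular to the group. Of 53 other Z-disc, titin and costamere genes, K27me2 was below 0 at 38 in the failed and 41 in the normal heart. Their K27me2 medians were -0.37 in the failed and -0.48 in the normal heart. K20me3 was below 0 at 36 of them in the failed and 32 in the normal heart, with medians of -0.33 and -0.17. For K9me2 the median was -0.38 in the failed and -0.91 in the normal heart, with 6 of 11 below 0 in the failed and 9 of 11 in the normal heart. K4me2 had a median of 0.03 in the failed heart, where it was -0.65 as deposited and -0.20 under quantile normalization, and 0.52 in the normal heart, K4me3 of -0.42 in the failed and -0.13 in the normal heart, and K9me3 of -0.23 in the failed and 0.25 in the normal heart. These 3 marks had probe sets on both sides of 0 in each heart. Without the pre-IP subtraction the K20me3 median was 0.017 in the failed and -0.36 in the normal heart, relative to the median of each ChIP array. Over pre-IP, several medians turned when each gene was counted by its brightest probe set. K9me2 then had 0.30 in the failed and -0.82 in the normal heart. K4me2 had -0.15 in the failed and -0.57 in the normal heart, and K9me3 0.06 in the failed and -0.18 in the normal heart. K27me2 stayed below 0, at -0.36 in the failed and -0.87 in the normal heart, as did K20me3, at -0.31 and -1.04.

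Single genes of the group spread far around these medians. Tcap had K27me2 levels of 73.7 in the failed and 32.1 in the normal heart and K20me3 levels of 84.0 in the failed and 32.1 in the normal heart, below its pre-IP levels of 171 in the failed and 197 in the normal heart. The K27me2 enrichment was -1.22 in the failed and -2.62 in the normal heart, and that of K20me3 -1.03 in the failed and -2.62 in the normal heart. Its H3ac enrichment was 1.46 in the failed and 1.07 in the normal heart, the highest of its 8 marks in both. Xirp1 had H4ac levels of 488 in the failed and 518 in the normal heart over pre-IP levels of 170 in the failed and 209 in the normal heart, enrichments of 1.52 in the failed and 1.31 in the normal heart. Its K9me2 levels of 36.2 in the failed and 68.9 in the normal heart gave -2.23 in the failed and -1.60 in the normal heart. Both hearts thus gave Tcap and Xirp1 their highest value in an acetylation and their lowest in a methylation. The same held at Actn2, at both probe sets of Ankrd1 and at probe set 1 of Fhl1, but not at the other Fhl1 probe sets. At Ankrd23 it held in the failed heart only, since K4me2 was its highest mark in the normal heart. Ankrd23 had H4ac enrichments of 1.39 in the failed and 0.91 in the normal heart, and H3ac enrichments of 0.92 in the failed and 0.55 in the normal heart.

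Myoz2 and Csrp3 did not show that order. Myoz2 had an H3ac enrichment of -0.29 in the failed and -1.45 in the normal heart, its lowest there, and a K9me3 enrichment of 0.62 in the failed and 1.23 in the normal heart, its highest there. Csrp3 was below 0 for 6 of 8 marks in the failed and 7 of 8 in the normal heart, among them H3ac at -0.32 in the failed and -0.80 in the normal heart. Its H4ac enrichment was -0.23 in the failed and -0.77 in the normal heart. Actn2 had an H3ac enrichment of 0.35 in the failed and 0.54 in the normal heart, while for H4ac it was below 0 in the failed heart, at -0.48, and above 0 in the normal heart, at 0.67.

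**Figure D4:**
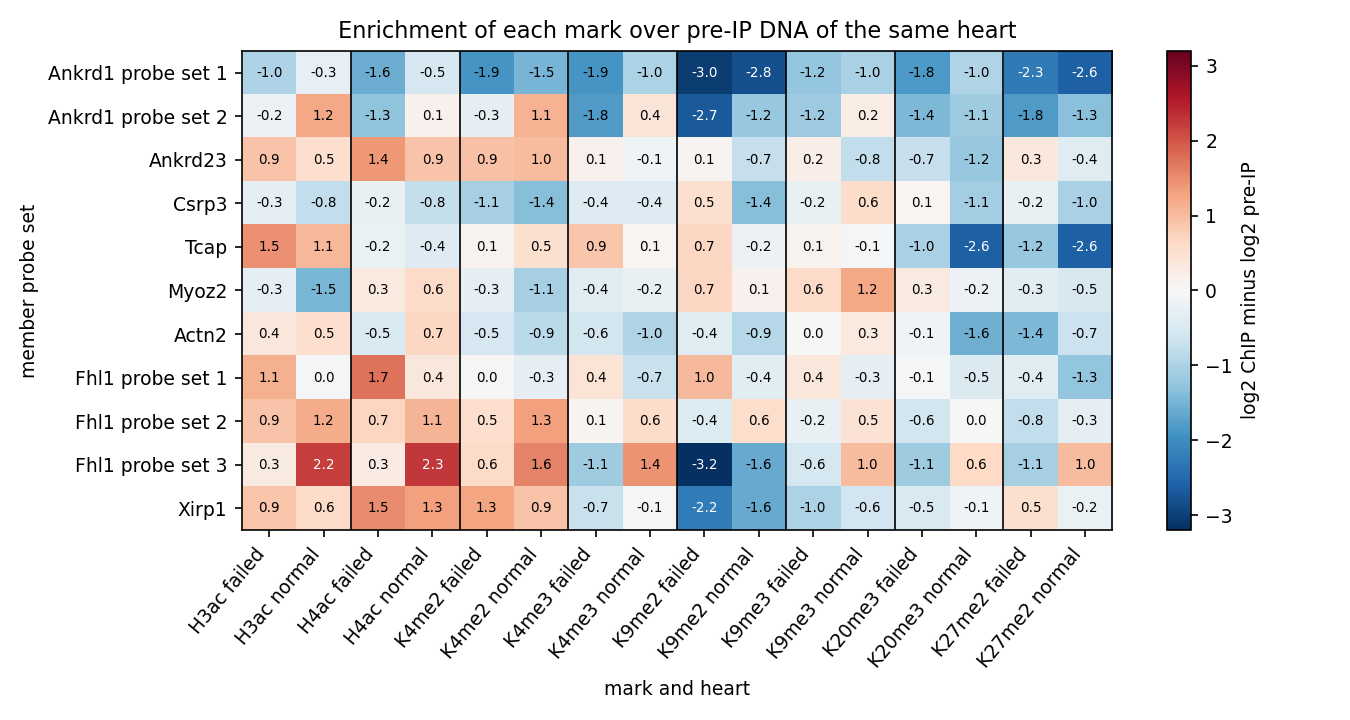
Enrichment over pre-IP DNA of the same heart (colour and printed value, log2) of the 11 probe sets (rows) for 8 marks (column pairs, failed left and normal right). Ankrd1 probe set 1 is blue throughout, down to -3.04 for K9me2 in the failed heart, and Tcap has its lowest values, -2.62, for K20me3 and K27me2 in the normal heart.

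The second comparison was of each mark at these genes in failed and normal left ventricle. Calls were few and in both directions. For H3ac 2 of the 8 probe sets above the filter differed by 2-fold, where 19.5% of all probe sets did, and for H4ac 3 of 9, against 11.2%. For K4me2 1 of 8 did, against 18.1%, for K4me3 1 of 8, against 19.2%, for K9me2 3 of 6, against 25.4%, and for K9me3 1 of 8, against 21.2%. For K20me3 2 of 7 did, against 17.3%, and for K27me2 0 of 5, against 13%. With 5 to 9 probe sets above the filter per mark, each of these counts rests on few values. Probe sets of 1 gene were counted separately, and the K4me2, K4me3 and K9me3 calls were all at Ankrd1 probe set 2. With each gene by its brightest probe set, 1 of 6 genes above the filter was called for H3ac and 2 of 7 for H4ac. It was 0 of 6 for K4me2, K4me3 and K9me3, 1 of 4 for K9me2, 2 of 5 for K20me3 and 0 of 3 for K27me2. The medians over the 11 probe sets lay between -0.42, for K9me3, and 0.52, for K9me2. Over the 8 genes they lay between -0.26, for K9me3, and 0.72, for K27me2.

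Ankrd1 had less of most marks in the failed heart. H3ac levels were 93.5 in the failed and 143 in the normal heart at probe set 1, and 238 in the failed and 407 in the normal heart at probe set 2. H4ac levels were 62.1 in the failed and 118 in the normal heart at probe set 1, and 111 in the failed and 188 in the normal heart at probe set 2. Both acetylations were thus lower at both probe sets, opposite in direction to the mRNA. Over pre-IP the H3ac differences were -0.72 at probe set 1 and -1.44 at probe set 2, the H4ac differences -1.04 and -1.43, and the K4me3 differences -0.87 and -2.21. K4me2 differed by -0.41 and -1.42, K9me2 by -0.23 and -1.47, K9me3 by -0.21 and -1.42 and K20me3 by -0.89 and -0.30. K27me2 was the mark whose probe sets parted, at 0.35 and -0.48. Pre-IP itself differed by 0.11 at probe set 1 and 0.67 at probe set 2. Without it the differences were -0.61 and -0.77 for H3ac, -0.93 and -0.76 for H4ac and -0.76 and -1.54 for K4me3. At probe set 2 they were -0.75 for K4me2, -0.80 for K9me2 and -0.75 for K9me3, so that of its calls the K4me3 one alone held without pre-IP, and they were 0.37 for K20me3 and 0.19 for K27me2. At probe set 1 the H4ac call ended as deposited, at -0.99, and K9me2 turned to 0.08 under quantile normalization.

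The enrichments of Ankrd1 themselves differed between its probe sets in the normal heart. Probe set 1 was below 0 for all 8 marks in both hearts, with K9me2 at -3.04 in the failed and -2.82 in the normal heart. Probe set 2 was below 0 for all 8 marks in the failed heart but above 0 for 5 of 8 in the normal heart. Its H3ac enrichment was -0.20 in the failed and 1.24 in the normal heart, and its K4me2 enrichment -0.31 in the failed and 1.11 in the normal heart. The pre-IP levels were 185 in the failed and 171 in the normal heart at probe set 1, and 273 in the failed and 172 in the normal heart at probe set 2.

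Ankrd23, with the largest mRNA difference of the group, had no called difference in its marks, of which H3ac, H4ac and K4me2 passed the filter. H3ac levels were 162 in the failed and 161 in the normal heart and H4ac levels 224 in the failed and 206 in the normal heart. Over pre-IP H3ac differed by 0.37, H4ac by 0.48 and K4me2 by -0.09. Among the marks below the filter the value reached 1.01, for K9me3. The pre-IP levels were 85.7 in the failed and 110 in the normal heart, and without pre-IP H4ac differed by 0.12 and K4me2 by -0.45.

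Csrp3, Actn2 and Myoz2 had calls in single marks. Csrp3 had K9me2 levels of 154 in the failed and 51.5 in the normal heart, a difference over pre-IP of 1.88, and K20me3 levels of 113 in the failed and 61.2 in the normal heart, a difference of 1.18. Its K9me3 levels were 91.5 in the failed and 199 in the normal heart, a difference of -0.82. At Csrp3 the 2 methylation states of K9 thus differed in opposite directions. Actn2 had H4ac levels of 264 in the failed and 709 in the normal heart, a difference of -1.15, and K20me3 levels of 335 in the failed and 150 in the normal heart, a difference of 1.43. Myoz2 had H3ac levels of 267 in the failed and 112 in the normal heart, a difference of 1.16, while its H4ac levels of 404 in the failed and 471 in the normal heart gave -0.32. The acetylations of H3 and H4 thus parted at Myoz2. These genes have 1 probe set each, so no other probe set shows whether a value recurs. Without pre-IP both calls of Csrp3 ended, K9me2 at 1.57 with a mean level below the filter and K20me3 at 0.88, and its K9me3 difference of -1.12 was called instead. The calls of Actn2 held without pre-IP, at -1.42 for H4ac and 1.15 for K20me3, and K27me2 was called too, at -1.01. The H3ac call of Myoz2 held without pre-IP, at 1.26, and ended under quantile normalization, at 0.80.

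Tcap and Xirp1 had 0 called differences. Tcap differed by 1.59 for K20me3 and 1.40 for K27me2, both with a mean level below the filter, and without pre-IP by 1.39 and 1.20. Its other marks lay between -0.41, for K4me2, and 0.86, for K9me2. Xirp1 lay between -0.66, for K4me3, and 0.71, for K27me2, and differed by 0.27 for H3ac and 0.22 for H4ac, which without pre-IP were -0.03 and -0.09.

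The 3 probe sets of Fhl1 gave opposite answers. At probe set 1 all 8 marks had higher enrichments in the failed heart, with differences of 0.32 for K4me2 to 1.39 for K9me2. At probe set 2 all 8 were lower, with differences of -0.28 for H3ac to -1.01 for K9me2, and at probe set 3 they lay between -2.56 for K4me3 and -0.96 for K4me2. At probe sets 1 and 3, where no mark passed the filter, the pre-IP differences of -0.94 and 1.57 had the opposite sign to all 8. Without pre-IP probe set 1 differed by 0.25 for H3ac, 0.43 for H4ac and -0.62 for K4me2, and probe set 3 by -0.35 for H3ac, -0.43 for H4ac and 0.61 for K4me2. K9me2 was at the floor in both hearts at probe set 3, so its enrichments of -3.19 in the failed and -1.61 in the normal heart are upper bounds and their difference has no meaning of its own. Only the K9me2 difference of probe set 2, from levels of 124 in the failed and 204 in the normal heart, was called. Without pre-IP that call ended, at -0.72, and the H3ac difference of probe set 2 was 0.004.

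**Figure D5:**
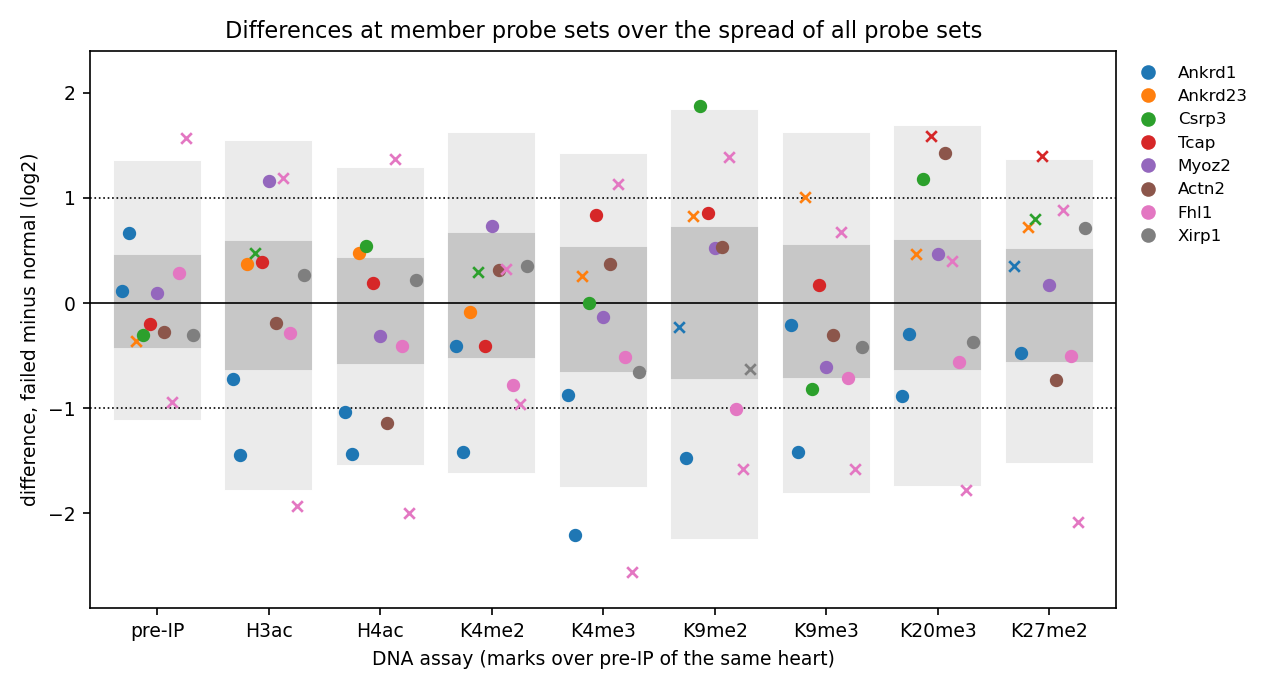
Difference, failed minus normal (y axis, log2), at the 11 probe sets for pre-IP DNA and 8 marks over pre-IP (x axis). Circles passed the level filter and crosses did not, colours are genes, and grey boxes span the middle 50% (dark) and 90% (light) of all probe sets. Both Ankrd1 probe sets lie below 0 for H3ac, H4ac and K4me3, and the probe sets of Fhl1 lie on both sides of 0 for each mark.

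The 8 genes were not alike in their chromatin profiles. Over the 16 enrichments, 8 marks in 2 hearts, the correlation of a gene with the mean of the other 7 was 0.63 for Fhl1 and Actn2, 0.60 for Ankrd23, 0.49 for Tcap, 0.37 for Ankrd1, 0.22 for Xirp1, 0.21 for Csrp3 and -0.02 for Myoz2, each by its brightest probe set. Among 9213 other genes those most like the mean of all 8 were Mars1 at 0.93, Bicra and Ndufb9 at 0.92 and Plpp5 and Slc37a4 at 0.90. The 8 points of a heart share its pre-IP array, and values this high were picked from many genes. The mRNA differences of those 5 genes were -0.11, -0.41, 1.04, -0.46 and -0.38 in the same order.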

How the data were processed

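mRNA, pre-IP DNA and ChIP DNA of 8 marks were measured in left ventricle of a failed and a normal heart on 20 Affymetrix arrays. Per the labels, RNA was turned into biotin-labelled cDNA and DNA was fragmented, amplified by T7 transcription and labelled. Each array came with a linear intensity, as deposited by the authors, for each of 31099 probe sets. After trimming 2% at each end all arrays had means between 500.03 and 500.17; no source used here names the tool that summarised and scaled them.

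Each array was scaled to a median of 100, floored at 10 (2.14% to 11.0% of values) and taken to log2. Probe sets were named by the platform annotation, 20826 with 1 gene. A gene counted over a list was represented by the probe set whose mRNA level was highest on average. Members and lists were chosen with earlier results of these data known. Of the other Z-disc genes the 4 largest differences each way were named, and the 5 genes most alike in their enrichments. The call of mRNA differences was checked on simulated arrays with large planted changes and little noise. Such a check does not bear on differences near 2-fold or on how far single arrays vary. The calls of the marks were not checked in this way. Alternatives changed the scaling, the floor, the level filter, the pre-IP subtraction and the choice of probe set; marker sums without their highest gene were added after seeing the data. Arrays give no counts, so their number, 1 per assay and heart, limits the precision. Python 3.11.15, numpy 2.4.6 and pandas 2.3.3 were used.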

Additional observations from a re-analysis of the deposited data

How the results depend on the processing

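Over 280 recomputed values 241 moved by less than 1.5-fold and 39 by more. A change of sign was counted only for differences or medians of at least 1 in size on the log2 scale, and 0 were found. Only mRNA values reached that size. Marks entered as counts and medians, so their single called differences were not among the 280. Smaller medians that turned included those of the failed heart for H3ac (-0.04 as deposited), H4ac (-0.15 under quantile normalization) and K4me2. Without pre-IP the K4me3 median of the normal heart (1.005) and the K20me3 median of the failed heart (0.017) turned too. The floors of 50 and 1 moved none of the 280. With quantile normalization probe sets past 2-fold numbered 1 instead of 2 for H3ac and 1 instead of 0 for K27me2, and Csrp3 mRNA differed by 1.91 and Myoz2 mRNA by 0.85. As deposited, K4me2 had 2 instead of 1 past 2-fold and its failed-heart median was -0.65 instead of 0.03. Without a level filter the counts were 1 for pre-IP, 4 for H3ac, 5 for H4ac, 3 for K4me3, 5 for K9me2, 3 for K9me3, 4 for K20me3 and 2 for K27me2. Without pre-IP they were 1 for H3ac, 1 for H4ac, 0 for K4me2, 0 for K9me2, 1 for K20me3 and 1 for K27me2. With the mean of both pre-IP arrays they were 1 for H3ac, H4ac, K9me2, K20me3 and K27me2 and 0 for K4me2. Medians without pre-IP were 1.25 for H3ac, 0.89 for K4me2, 0.017 for K20me3 and -0.13 for K27me2 in the failed heart, and 1.15 for K4me2, 1.005 for K4me3, 0.91 for K9me3 and -0.36 for K20me3 in the normal heart; these are relative to each array's median and so hold the level of the DNA itself. Of the other Z-disc genes 11 were higher as deposited, and 11 were higher and 3 lower with quantile normalization; 2 were lower without a level filter and 2 with the mean of all probe sets. The causes were not tested. Of the 8 genes, the mRNA difference stayed above 0 under each setting, from 0.12 to 0.43 for Xirp1 and from 1.08 to 1.59 for Fhl1. No paired analysis was possible because each group has 1 array. With 1 array per assay and heart, what an array or an animal adds cannot be told apart from heart failure.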

Other observations

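Probe sets of the same gene parted in mRNA at several of the other Z-disc genes, chosen here after their values were seen. The level filter was not applied to these ranges, so they may hold values of dim probe sets. The 4 probe sets of Pdlim5, a PDZ and LIM protein of the Z-disc, lay between -0.50 and 2.91, and those of Synpo2 between -0.56 and 2.61. The 6 probe sets of Ldb3, or cypher, lay between -0.69 and 0.94. The capping protein gene Capzb lay between -1.72 and 0.73 and Lims1 between -3.00 and 0.63, each with 2 probe sets. By contrast the 2 probe sets of the integrin gene Itgb1 differed by 1.19 and 2.77 and those of Flnc, filamin C, by 0.67 and 1.03.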
